A study of Homo sapiens with 6 samples.

Results

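GDF15 encodes growth differentiation factor 15, a secreted stress cytokine. Its row was taken by gene symbol from each of 6 RNA-seq libraries of C4-2B cells, and it is 1 gene of the 26684 listed in any of the 3 deposited tables. The gene was picked because its change was already known from these same libraries, so its levels and changes are given as a description with no test. It was chosen by its log2 changes with SR2211, XY011 and ENZ.

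C4-2B, an established cell line from human prostate cancer, descends from LNCaP cells and spreads to bone in mice. The cells were kept mainly in charcoal-stripped serum, which is low in steroid hormones, in all 6 libraries, and RNA was taken at 48 h. The tested groups were 5 µM SR2211 (a synthetic inverse agonist of a nuclear receptor), 5 µM XY011 (known here only by its code name) and 20 µM enzalutamide (ENZ, an antiandrogen drug used against prostate cancer). Each of the 3 had its own vehicle library, and each group is 1 library of 1 line, so the differences have no replicate check and no p-value is given.

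The labels of the compounds do not fully match each other: the extraction protocol of the SR2211 and XY011 experiments names another code where the titles have XY011, and that of the ENZ pair names SR2211. Groups follow the titles. Poly(A) RNA was sequenced, and the SR2211 table holds RPKM while the XY011 and ENZ tables hold FPKM, both being reads or fragments scaled for gene length and for the mapped total. The 3 tables were normalised separately, so a level is compared directly only within a pair. All 10 luminal prostate markers were at 1 or more in every library. Their summed level was 1271 RPKM with SR2211 against 3184 RPKM in its vehicle, 1410 FPKM with XY011 against 3184 FPKM, and 3591 FPKM with ENZ against 5656 FPKM. The part of that lower luminal level in the GDF15 values was not tested. Of 5 fibroblast markers, 3 were listed with SR2211, 1 with XY011 and 4 with ENZ, and 1 to 3 were at 1 or more. Their sums were 5.82 RPKM with SR2211 against 3.76 RPKM, 3.45 FPKM with XY011 against 2 FPKM, and 45.5 FPKM with ENZ against 29.1 FPKM. The members differed with ENZ: COL1A1 was 34.8 FPKM against 14.1 FPKM and DCN 4.34 FPKM against 8.94 FPKM. COL1A2 was 5.43 FPKM against 5.09 FPKM, and COL3A1 0.879 FPKM against 0.983 FPKM. The part of these markers in the GDF15 values was not tested. Of 5 leukocyte markers CD68 alone was at 1 or more, and the 3 endothelial and 2 macrophage markers were below 1 wherever they were listed.

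GDF15 is a distant member of the TGF-β superfamily. It is made as a propeptide, cleaved by furin-type proteases and secreted as a dimer, and its receptor is GFRAL, which signals together with the kinase RET in the hindbrain and lowers food intake. Its transcription is known to respond to ATF4 and CHOP, the factors of the integrated stress response, in which phosphorylated eIF2α slows translation in general but raises that of ATF4. Blood GDF15 is raised in several cancers, prostate cancer among them.

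On GRCh38 (GENCODE 29) the main transcript, GDF15-201, lies on the forward strand of chromosome 19 at 18386158 to 18389176. It has 2 exons (18386158 to 18386466, and 18388286 to 18389176) that together hold 1200 bases. The deposited tables give no coordinates. The 250 bases before the RefSeq start are shown because the results below compare GDF15 with stress genes also higher with SR2211 and XY011. Capitals mark a TATAAA box and the GC box GGGCGG on either strand, which reads CCGCCC on the forward strand when it lies on the reverse one.
GDF15 promoter, chr19:18385908-18386157, GRCh38.p14, forward strand: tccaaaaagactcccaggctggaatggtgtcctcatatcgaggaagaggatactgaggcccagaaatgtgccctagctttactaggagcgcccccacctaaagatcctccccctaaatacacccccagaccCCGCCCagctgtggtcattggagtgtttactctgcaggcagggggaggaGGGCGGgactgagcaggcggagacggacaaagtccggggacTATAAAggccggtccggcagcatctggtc
The TATAAA began 29 bases before the start, and the GC boxes 119 and 70 bases before it. TATAAA is in the promoter window of 13.0% of 27305 genes and GGGCGG in that of 46.2%, counted on both strands. The letters of the composite element bound by ATF4 with CHOP or another C/EBP partner (TGATGNAA), of the cyclic AMP element (TGACGTCA) and of the AP-1 element (TGANTCA) are not in this GDF15 window.

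GDF15 was among the most abundant transcripts with SR2211 and with XY011. It stood at 2315 RPKM with SR2211 against 175 RPKM in the SR2211 vehicle. Its level was 1969 FPKM with XY011 against 57.3 FPKM in the XY011 vehicle. With ENZ it stood at 619.7 FPKM, against 1064 FPKM in the ENZ vehicle. The treated library was thus the higher one of the pair with SR2211 and XY011, and the lower one with ENZ. In bulk RNA of this kind, fewer cells that express a gene and less RNA per cell cannot be told apart.

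The rank of GDF15 among the listed genes shows how far these levels are from ordinary. It was ranked 9 of 17367 genes with SR2211, just below ACTB (cytoskeletal β-actin, 2379 RPKM) and just above the ribosomal protein gene RPS6 (2257 RPKM). In the SR2211 vehicle its rank was 302, beside LRRC59 and TXN at 175 RPKM each. With XY011 GDF15 ranked 33 of 16046, between RPL13AP5 (1977 FPKM) and the ribosomal protein gene RPL35A (1955 FPKM). It ranked 1383 in the XY011 vehicle, between NAE1 (57.3 FPKM) and FEN1, a flap endonuclease of DNA replication (57.2 FPKM). Its rank was 244 of 22414 with ENZ, between NUCB2 (620.7 FPKM) and RPL22L1 (618.6 FPKM), against 142 in the ENZ vehicle. GDF15 made up 0.573% of all summed values with SR2211 against 0.0437% in its vehicle, 0.415% with XY011 against 0.0122%, and 0.0527% with ENZ against 0.0921%.

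To put the 6 libraries on 1 scale, GDF15 was also expressed in parts per 1000000 (ppm) of the values summed over the 13450 genes that all 3 tables share. On this scale it stood at 5762 ppm with SR2211, 4225 with XY011, 919 with ENZ, 1535 in the ENZ vehicle, 439.7 in the SR2211 vehicle and 124 in the XY011 vehicle. The order from high to low was SR2211, XY011, ENZ vehicle, ENZ, SR2211 vehicle and XY011 vehicle. With no replicates, which neighbours in that order differ beyond their spread is unknown. Relative to the median of 13 housekeeping genes, GDF15 was at 16.0 times with SR2211 against 1.25 times in its vehicle, 12.6 times with XY011 against 0.251 times, and 1.56 times with ENZ against 1.99 times. That median was itself 144 RPKM with SR2211 against 141 RPKM, 156 FPKM with XY011 against 229 FPKM, and 397 FPKM with ENZ against 533 FPKM. The XY011 and ENZ ratios therefore also carry a difference in the reference.

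**Figure D1:**
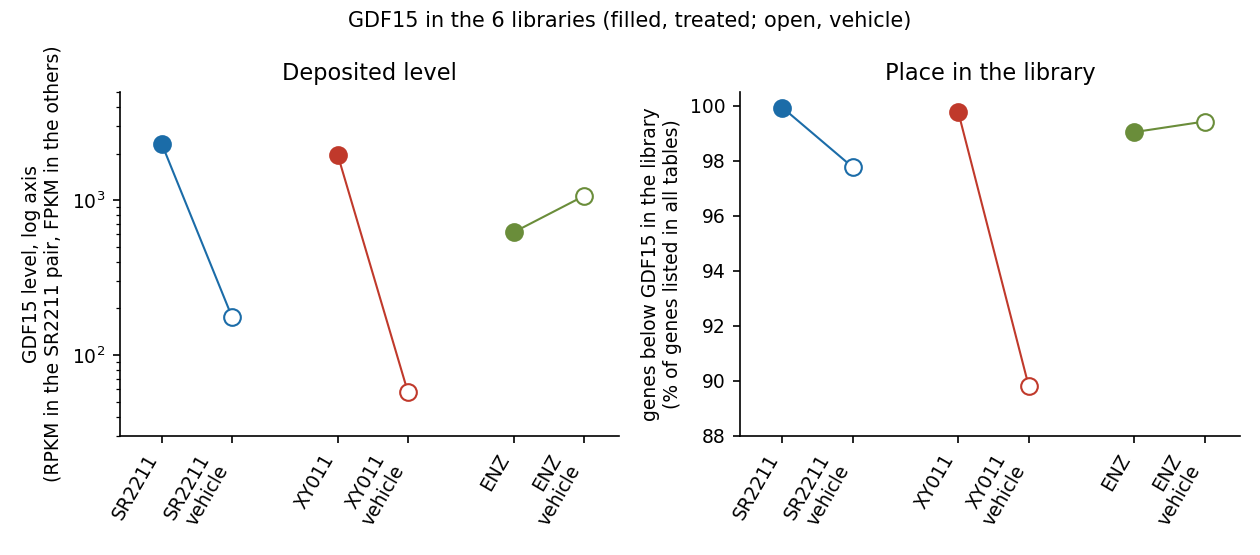
GDF15 level in each of the 6 libraries, 1 point per library: the deposited value (RPKM or FPKM) on a log axis and the percentage of the genes listed in all 3 tables that lie below GDF15 in that library. The filled treated points lie above the open vehicle points with SR2211 (2315 against 175 RPKM, and 99.9% against 97.8%) and XY011 (1969 against 57.3 FPKM, and 99.8% against 89.8%), and below with ENZ (619.7 against 1064 FPKM, and 99.0% against 99.4%).

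Changes within an experiment are log2((treated + 1)/(vehicle + 1)) over genes at 1 or more in either library, and a gene is called higher or lower at a change of 1 or more. GDF15 was 13.2-fold higher with SR2211 than in its vehicle, a log2 change of 3.71, the rank 6 increase of 12151 genes, of which 5.1% were called higher and 5.75% lower. It was 34.4-fold higher with XY011, a log2 change of 5.08 and the rank 1 increase of 12615 genes, of which 7.59% were called higher and 13.2% lower. Its level with ENZ was 0.583 times that in the vehicle, a log2 change of -0.78 that stayed under the size rule. In the ENZ pair 3.67% of 19236 genes were called higher and 4.66% lower, and 7.75% changed as far down as GDF15 or further. The median change of all genes tested was -0.07 with SR2211, -0.14 with XY011 and -0.02 with ENZ. The share of calls that are higher depends on the scaling: it was 47.0% with SR2211, 36.5% with XY011 and 44.1% with ENZ as deposited, and 61.5%, 65.4% and 59.6% with each pair centred on the housekeeping median. With XY011 it was also 47.0% with the pair centred on its median gene and 49.2% with quantile scaling.

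Several of the genes next to GDF15 by size of change are known stress genes. Above it with SR2211 stood HMOX1 (haem oxygenase 1, log2 change 5.40), ATF3 (a stress-induced transcription factor, 4.24), RNF144B (a ubiquitin ligase, 3.89), DDIT3 (which encodes CHOP, 3.84) and CHAC1 (which breaks down glutathione, 3.73). Below it came LINC01133 and MAP1B, a microtubule-associated protein, at 3.58 each. With XY011 no gene stood above GDF15, and DDIT3 (4.72) and ATF3 (4.22) followed. The rank depends on the pseudocount and scaling: with a pseudocount of 0.1 it was 28 with SR2211 and 11 with XY011, and with SR2211 it was 2 with a pseudocount of 5 and 14 with values rescaled to a common sum. In absolute terms the GDF15 difference was 2139 RPKM with SR2211, the rank 2 increase, and 1912 FPKM with XY011, the rank 3 increase. It was -444 FPKM with ENZ, the rank 14 decrease.

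**Figure D2:**
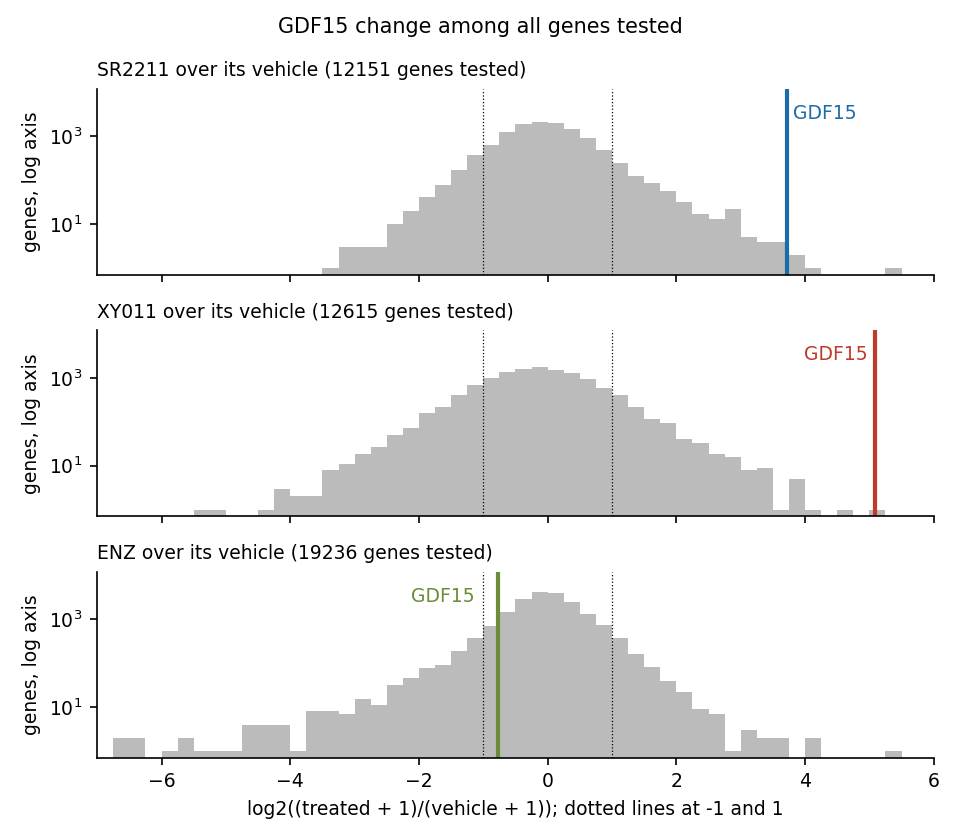
Number of genes by log2 change, treated over vehicle, in each experiment, on a log count axis, with the change of GDF15 marked by a line. GDF15 lies at the far right with SR2211 (3.71) and XY011 (5.08) and left of 0 with ENZ (-0.78).

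Read numbers could be recovered for the SR2211 pair. The values of microRNA genes of known length were whole reads, within 0.01 read, at 8163382 mapped reads with SR2211 (34 of 35 genes, 97.1%) and at 8200243 in the vehicle (26 of 26 genes). With these depths a single gene length between 200 and 2400 bases, 1220 bases, made both GDF15 values whole. It gave 23053 reads with SR2211 against 1755 in the vehicle, within 2.9e-07 and 9.6e-08 of a whole read. GDF15-201 of GENCODE 29 is 1200 bases long, which gives 22675 reads with SR2211 against 1726 in the vehicle to the nearest whole read, and the annotation behind the table is not known. Their ratio per mapped read was 13.2, with an exact 95% interval of 12.6 to 13.9 at either length that covers counting error alone and no spread between cultures. The same search gave whole reads for at most 29.4% of microRNA genes with XY011, 37.5% in its vehicle, 33.3% with ENZ and 30% in the ENZ vehicle. The depth behind those 4 GDF15 values is therefore unknown.

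SR2211 and XY011 were used at the same dose and time. The log2 change of GDF15 was 1.37 larger with XY011 than with SR2211, and 1.77% of 11634 genes differed between those pairs by as much in either direction. On the ppm scale the GDF15 value was lower with XY011 (4225 ppm) than with SR2211 (5762 ppm). It was also lower in the XY011 vehicle (124 ppm) than in the SR2211 vehicle (439.7 ppm). The tables were normalised separately and each group is 1 library, so neither difference was tested. ENZ was given at another dose, 20 µM, so its values stand beside the others with no comparison of potency. The GDF15 change with SR2211 minus that with ENZ was 4.49, the rank 2 value of 11578 genes, and with XY011 minus ENZ it was 5.86, the rank 1 value of 11554. The gene was chosen for this contrast, so these ranks describe the choice.

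GDF15 also differed between the 3 vehicle libraries. On the ppm scale the ENZ vehicle exceeded the SR2211 vehicle by a log2 difference of 1.80 and the XY011 vehicle by 3.62, and the SR2211 vehicle exceeded the XY011 vehicle by 1.81. Differences at least that large in either direction were seen for 6.62% of 12850 genes, 1.11% of 12810 genes and 3.58% of 12627 genes in those 3 pairs of vehicles. The ENZ vehicle, with the highest vehicle level of GDF15, was also the highest vehicle for 5197 of 13450 shared genes (38.6%), for 20 of 36 genes of the integrated stress response and for 10 of 25 growth arrest and DNA damage response genes. Experiment, table and processing all change between these libraries and cannot be told apart.

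The regulator list holds 14 transcription factors of stress, growth and inflammation. Of the 13 tested, 4 were called higher with SR2211, 6 with XY011 and 0 with ENZ, and none was called lower in any pair. The shares called higher of all genes tested were 5.1%, 7.59% and 3.67%, and those called lower 5.75%, 13.2% and 4.66%, in the same order. ATF4, the master factor of the integrated stress response, stood at 606 RPKM with SR2211 against 216 RPKM in its vehicle (log2 change 1.48), and at 1470 FPKM with XY011 against 319.7 FPKM (2.20). It was 467 FPKM with ENZ against 307 FPKM (0.60). ATF4 is also controlled at translation, which RNA levels do not show.

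DDIT3 was 302 RPKM with SR2211 against 20.2 RPKM in its vehicle (3.84), and 618.5 FPKM with XY011 against 22.5 FPKM (4.72). With ENZ it was 44.5 FPKM against 28.4 FPKM (0.63). ATF3 was 145 RPKM with SR2211 against 6.76 RPKM (4.24), 197 FPKM with XY011 against 9.62 FPKM (4.22) and 23.4 FPKM with ENZ against 17.3 FPKM (0.41). CEBPB, a C/EBP factor of stress and inflammation, was 53.2 RPKM with SR2211 against 12.9 RPKM (1.97), 22.6 FPKM with XY011 against 3.96 FPKM (2.25) and 54.7 FPKM with ENZ against 36.8 FPKM (0.56). These 4 factors were higher with SR2211 and XY011 by the size rule. With ENZ they had positive changes below the rule, while that of GDF15 was negative.

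XBP1, a factor of the unfolded protein response, had changes of 0.69, 1.12 and 0.63 with SR2211, XY011 and ENZ. SP1, which binds GC boxes, had -0.04, 1.14 and -0.25. The other regulators stayed under the size rule in every pair: KLF4 (-0.23, 0.53 and -0.90), HIF1A of the hypoxia response (0.76, 0.86 and -0.26), NFE2L2 of the oxidative stress response (0.51, 0.75 and -0.36), NFKB1 (-0.51, -0.63 and -0.10), RELA (-0.08, 0.35 and -0.12), TFEB (-0.37, 0.20 and -0.76) and TFE3 (0.45, 0.57 and -0.03), in the same order. EGR1, an early growth response factor, was below 1 in every library and was not tested. The median over the tested regulators was 0.51 with SR2211, 0.86 with XY011 and -0.10 with ENZ. The ENZ median turned to 0.06 when the pair was centred on the housekeeping median.

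**Figure D3:**
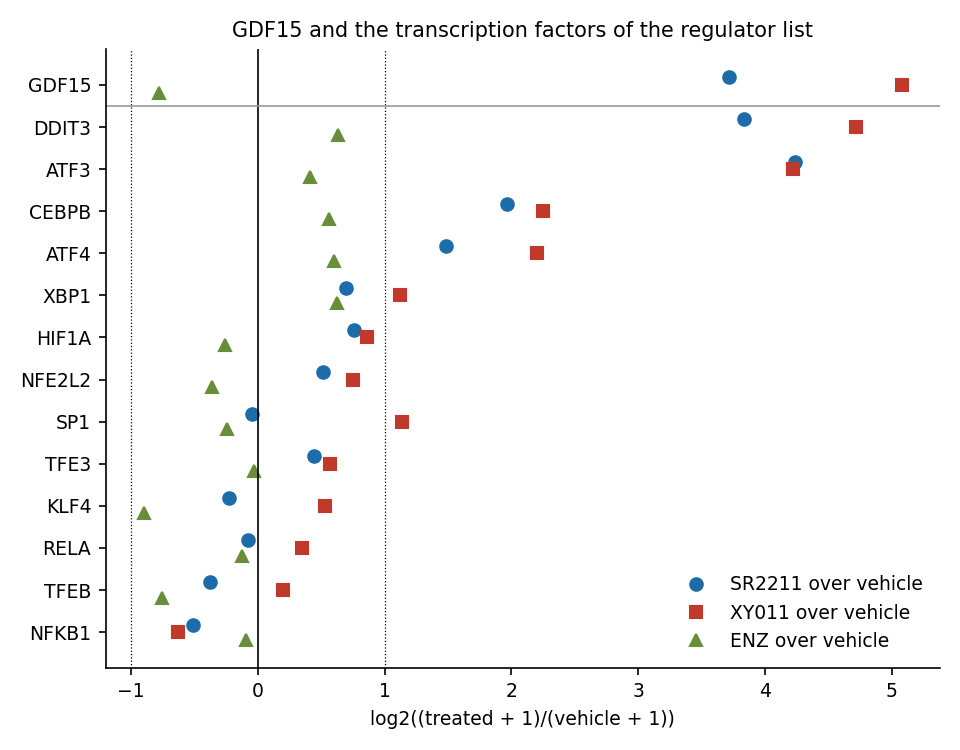
Log2 change, treated over vehicle, of GDF15 and the transcription factors of the regulator list, 1 point per experiment. DDIT3 (3.84 with SR2211 and 4.72 with XY011) and ATF3 (4.24 and 4.22) lie near GDF15 in those experiments, and with ENZ both lie above 0 (0.63 and 0.41) where GDF15 lies at -0.78.

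The level of GDF15 was next set against those of the same factors within each library, where both values share a scale per length. There were 7.67 GDF15 per DDIT3 with SR2211 against 8.70 in its vehicle, 3.18 with XY011 against 2.54, and 13.9 with ENZ against 37.5. GDF15 and DDIT3 thus kept a similar proportion in the SR2211 and XY011 pairs, and the proportion in ENZ-treated cells was below that of their vehicle. Relative to ATF4, GDF15 stood at 3.82 with SR2211 against 0.812, at 1.34 with XY011 against 0.179, and at 1.33 with ENZ against 3.46. Per ATF3 it was 15.9 with SR2211 against 26.0, 10.0 with XY011 against 5.95, and 26.5 with ENZ against 61.4. Against ASNS, the amino acid response gene for asparagine synthetase, the ratio was 6.82 with SR2211 against 3.65, 3.89 with XY011 against 0.867, and 1.96 with ENZ against 7.24. Per CDKN1A, the cell cycle inhibitor gene that encodes p21, it was 10.8 with SR2211 against 6.69, 13.5 with XY011 against 1.92, and 11.4 with ENZ against 19.7. All 8 ratios computed in the ENZ pair were lower with ENZ than in its vehicle. GDF15, chosen by its changes, was lower with ENZ, and each of the 8 other genes had a change above 0. The fall of all 8 ratios follows from those values and adds nothing to them.

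**Figure D4:**
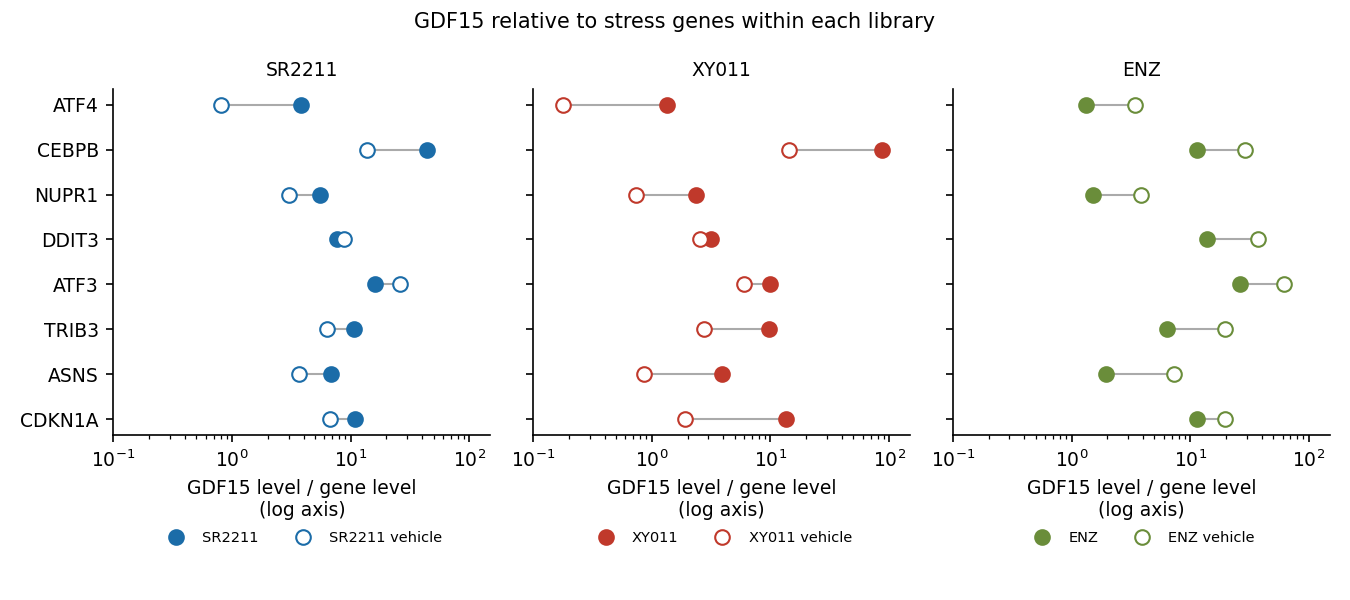
GDF15 level divided by that of another gene in the same library, on a log axis, 1 point per library. For DDIT3 the SR2211 and XY011 points lie close to those of their vehicles (7.67 against 8.70, and 3.18 against 2.54), while the ENZ points lie below their vehicle for every gene shown. The latter follows from the lower GDF15 level with ENZ, as every other gene shown had a change above 0 there.

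The genes that process the GDF15 propeptide were expressed. FURIN, its convertase, was 12.7 RPKM with SR2211 against 4.20 RPKM in its vehicle (1.40), called higher, 5.96 FPKM with XY011 against 3.38 FPKM (0.67) and 13.7 FPKM with ENZ against 11.1 FPKM (0.27). The related convertases PCSK6 (0.32, -0.09 and 0.59 with SR2211, XY011 and ENZ) and PCSK7 (-0.29, -1.05 and -0.06) were expressed in all 6 libraries, with PCSK7 called lower with XY011. PCSK5 was below 1 in the 4 libraries that list it.

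The receptor of GDF15 was close to undetected. GFRAL was 0.192 RPKM with SR2211, against the value that stands in for no reads (0.01) in its vehicle, and 0.28 FPKM with XY011, against the corresponding stand-in (0.001). It was not listed in the ENZ pair. RET, the kinase it signals through, was 0.0435 RPKM with SR2211 against 0.303 RPKM, 0.31 FPKM with XY011 against 0.27 FPKM and 0.534 FPKM with ENZ against 1.50 FPKM (-0.71). The related co-receptors GFRA1, GFRA2 and GFRA3 were below 1 wherever they were listed. Among the ligands of those co-receptors, GDNF was 1.97 FPKM with ENZ against 0.198 FPKM (1.31), called higher at a level close to the filter. NRTN was 1.83 RPKM with SR2211 against 0.428 RPKM (0.98) and 7.34 FPKM with ENZ against 3.32 FPKM (0.95), and was below 1 in the XY011 pair. ARTN had changes of 0.27, 0.20 and 0.57 with SR2211, XY011 and ENZ. PSPN was below 1 in the SR2211 pair and had a change of -0.27 with ENZ.

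Targets of the integrated stress response were higher with SR2211 and XY011 in the main. Of 36 genes tested, 25 were called higher with SR2211, 24 with XY011 and 4 with ENZ, and 0 were called lower. Beside them stand 5.1%, 7.59% and 3.67% called higher and 5.75%, 13.2% and 4.66% called lower of all genes tested. The medians were 1.22, 1.59 and 0.49, beside -0.07, -0.14 and -0.02 over all genes tested. In the ENZ pair 32 of the 36 had a change above 0, as had 47.7% of all genes tested, while the change of GDF15 was below 0.

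DDIT4, an inhibitor of mTOR signalling, was 579.6 RPKM with SR2211 against 51.7 RPKM (3.46), 521.9 FPKM with XY011 against 34.1 FPKM (3.90) and 737 FPKM with ENZ against 310.5 FPKM (1.24). CHAC1 was 66.8 RPKM with SR2211 against 4.10 RPKM (3.73), 64.4 FPKM with XY011 against 4.90 FPKM (3.47) and 38.4 FPKM with ENZ against 17.9 FPKM (1.05). ASNS was 339.6 RPKM with SR2211 against 48.1 RPKM (2.80), 506.5 FPKM with XY011 against 66.0 FPKM (2.92) and 316 FPKM with ENZ against 147 FPKM (1.10). These 3 genes were called higher in all 3 experiments, unlike GDF15. The pseudokinase gene TRIB3, an inhibitor of ATF4 activity, had changes of 2.94, 3.20 and 0.84 with SR2211, XY011 and ENZ, and NUPR1, a stress-induced nuclear protein, had 2.83, 3.40 and 0.57.

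A list of 14 genes of eIF2α signalling and the unfolded protein response, all tested, holds genes upstream of ATF4 and others downstream of it. Of these 14, 5 were called higher with SR2211, 4 with XY011 and 0 with ENZ, with medians of 0.44, 0.60 and 0.34. Called higher of all genes tested were 5.1%, 7.59% and 3.67%. TRIB3 and NUPR1 are among the 5 and the 4, and are also in the stress response list. The eIF2α kinase genes stayed under the size rule in every pair. ERN1, the IRE1 sensor of the endoplasmic reticulum, had changes of 2.28, 2.47 and 0.41. PPP1R15A, the phosphatase subunit that reverses eIF2α phosphorylation, had 2.20, 1.73 and 0.57. ATF6, another sensor, had 1.19, 0.95 and 0.15.

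In a list of growth arrest and DNA damage response genes, 25 were tested: 8 were called higher with SR2211, 9 with XY011 and 0 with ENZ, and 0 were called lower. Over all genes tested, 5.1%, 7.59% and 3.67% were called higher and 5.75%, 13.2% and 4.66% lower, in that order. The counts of 0 with ENZ lie near its shares. The medians were 0.69, 0.85 and 0.12. GADD45A, a growth arrest and DNA damage gene, was 33.7 RPKM with SR2211 against 3.40 RPKM (2.98), 44.2 FPKM with XY011 against 3.96 FPKM (3.19) and 18.6 FPKM with ENZ against 14.5 FPKM (0.34). CDKN1A was 214 RPKM with SR2211 against 26.2 RPKM (2.98), 146 FPKM with XY011 against 29.9 FPKM (2.25) and 54.6 FPKM with ENZ against 54.1 FPKM (0.01). SESN2 of the sestrin family had changes of 2.88, 2.60 and 0.80, and the pro-apoptotic genes BBC3 and PMAIP1 had 1.81, 2.27 and 0.19, and 1.33, 1.69 and -0.55. GADD45A, SESN2 and others of this list are also known to respond to ATF4 or ATF3, so it overlaps in its regulation with the stress response list. SESN2 is a member of both lists and is counted in each.

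Among 12 targets of NRF2, the factor of oxidative stress, 7 were called higher with SR2211, 6 with XY011 and 1 with ENZ, and the medians were 1.08, 0.91 and 0.06. The shares called higher of all genes tested were 5.1%, 7.59% and 3.67%, and 1 of 12 with ENZ lies near its share. HMOX1 was 487 RPKM with SR2211 against 10.6 RPKM (5.40), 49.2 FPKM with XY011 against 6.51 FPKM (2.74) and 10.6 FPKM with ENZ against 17.5 FPKM (-0.68). Like GDF15 it was high with SR2211 and XY011 and lower than its vehicle with ENZ, but its larger change was with SR2211. FTH1, the ferritin heavy chain, was called higher with all 3 (3.00, 3.22 and 1.19). SLC7A11, the cystine transporter, had 2.41, 1.21 and 0.01, and is counted in the stress response list too.

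GDF15 is also used as a blood marker of mitochondrial disease. In the list of mitochondrial stress genes, 3 of 11 tested were called higher and 1 lower with SR2211, 2 and 2 with XY011, and 0 and 0 with ENZ. The shares over all genes tested were 5.1% higher and 5.75% lower with SR2211, 7.59% and 13.2% with XY011, and 3.67% and 4.66% with ENZ. The medians were 0.23, 0.03 and -0.30, and that with XY011 was 0.16, 0.18 and 0.40 with median centring, quantile scaling and housekeeping centring. FGF21, the other cytokine of mitochondrial stress, was 8.47 RPKM with SR2211 against the stand-in for no reads in its vehicle, 3.13 FPKM with XY011 against the stand-in, and 1.89 FPKM with ENZ against 1.15 FPKM (0.43). The mitochondrial protease gene LONP1 had changes of 1.16, 1.07 and 0.30, and the chaperonin gene HSPE1 had -1.02, -1.62 and -0.48. The mitochondrial genes of this list thus differed in direction among themselves.

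Other secreted factors that stress can induce were called higher in part. Of 29 listed, 11 were tested with SR2211 (4 called higher and 1 lower), 10 with XY011 (5 and 0) and 14 with ENZ (0 and 0), beside 5.1% higher and 5.75% lower of all genes with SR2211, 7.59% and 13.2% with XY011, and 3.67% and 4.66% with ENZ. VEGFA, the angiogenic growth factor, was 195 RPKM with SR2211 against 25.9 RPKM (2.86), 134 FPKM with XY011 against 21.5 FPKM (2.59) and 61.6 FPKM with ENZ against 48.2 FPKM (0.35). STC2, a secreted glycoprotein, had changes of 1.11, 1.78 and 0.73, and ADM2, a peptide hormone, had 1.59, 1.05 and 0.46. VEGFA was the most abundant member of that list with SR2211 and with XY011, and its level there was far below the 2315 RPKM and 1969 FPKM of GDF15. Among the secreted factors, STC2 is also counted in the stress response list, and FGF21 in the mitochondrial stress list.

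Within the TGF-β superfamily, BMP7 was the 1 other ligand called higher with SR2211 or XY011. Of 32 other ligands, 10 were tested with SR2211 (1 called higher and 1 lower), 7 with XY011 (1 and 0) and 11 with ENZ (2 and 1), and the medians were -0.22, -0.23 and 0.12. BMP7, a bone morphogenetic protein, was called higher in every experiment: 16.0 RPKM with SR2211 against 3.79 RPKM (1.83), 12.2 FPKM with XY011 against 3.25 FPKM (1.64) and 16.5 FPKM with ENZ against 4.11 FPKM (1.78). GDF11, a relative of myostatin, had changes of -0.76, -0.56 and 0.09. The receptors and SMAD signal carriers gave 2 called higher and 1 lower of 17 with SR2211, 1 and 2 of 16 with XY011, and 0 and 1 of 19 with ENZ. Beside the counts of ligands and of receptors stand 5.1% higher and 5.75% lower of all genes with SR2211, 7.59% and 13.2% with XY011, and 3.67% and 4.66% with ENZ, and with so few members tested most of these counts lie near those shares. The type I receptor gene BMPR1B was called lower with all 3 (-1.03, -1.40 and -1.48).

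Transcripts that TGF-β or BMP signalling is known to induce were called in both directions: 5 higher and 1 lower of 10 with SR2211, 3 and 1 of 10 with XY011, and 3 and 1 of 13 with ENZ. Of all genes tested, 5.1% were called higher and 5.75% lower with SR2211, 7.59% and 13.2% with XY011, and 3.67% and 4.66% with ENZ. The 1 lower call in each pair lies near those shares. The medians of the list were 0.99, 0.88 and 0.11. ID1, a BMP target that encodes an inhibitor of differentiation, was called higher with all 3 (1.62, 1.11 and 1.32). PMEPA1, a feedback inhibitor of TGF-β signalling that is also known as an androgen-induced gene, was called lower with all 3 (-2.50, -3.35 and -2.77).

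The genes that flank GDF15 on chromosome 19, in RefSeq order, differed among themselves. Of the 10 nearest, 5 on each side, 7 were tested with SR2211 (1 called higher and 0 lower), 8 with XY011 (2 and 1) and 8 with ENZ (1 and 0). Of all genes tested, 5.1% were called higher and 5.75% lower with SR2211, 7.59% and 13.2% with XY011, and 3.67% and 4.66% with ENZ, so a count of 1 or 2 neighbours is no result about them. JUND, an AP-1 transcription factor, was 180 RPKM with SR2211 against 56.4 RPKM (1.65), 299.5 FPKM with XY011 against 37.0 FPKM (2.98) and 133 FPKM with ENZ against 135 FPKM (-0.02). PGPEP1, the next gene to GDF15, had changes of 0.72, 1.03 and 0.92, and LSM4, an RNA-binding protein gene beside it, had -0.91, -1.16 and -0.35. IQCN, the neighbour called higher with ENZ, was 2.27 FPKM with ENZ against 0.632 FPKM (1.00) and was below 1 in the other 4 libraries. On the other side, LRRC25 (0.39 with XY011, untested with SR2211), SSBP4, ISYNA1, ELL and FKBP8 stayed under the size rule wherever they were tested.

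MIR3189 lies in the intron of GDF15 (chromosome 19, 18386562 to 18386634, a hairpin of 73 bases) on the same strand. Its 2 mature microRNAs are printed because their host is the gene described here, with the seed, bases 2 to 8, in capitals.
hsa-miR-3189-5p: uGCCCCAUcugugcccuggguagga
hsa-miR-3189-3p: cCCUUGGGucugaugggguag
The seeds differ. The row of MIR3189 stood at 13.9 FPKM with XY011 against the stand-in for no reads in its vehicle, and was listed at 0 with ENZ against 428 FPKM in the ENZ vehicle. It was not listed in the SR2211 pair. The ENZ vehicle held no 0 for any gene, so a 0 in that pair could stand with ENZ alone. Of the microRNA genes listed, 1 library of the pair was at the stand-in for 81.8% with SR2211, 70.2% with XY011 and 23.3% with ENZ, and values of so short a feature in a library of long poly(A) RNA rest on few fragments.

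The likeness of other genes to GDF15 was measured as the distance between their 3 log2 changes and those of GDF15, over 11200 genes tested in every pair. The nearest were DDIT3 (distance 1.46), ATF3 (1.56), S100P (1.92), EEIG1 (2.07, listed as FAM102A), PRSS1 (2.24), TTC39B (2.29), GADD45A (2.32) and NUPR1 (2.33). S100P, a calcium-binding protein, was 18.98 RPKM with SR2211 against 1.43 RPKM (3.04), 19.01 FPKM with XY011 against 0.94 FPKM (3.37) and 32.9 FPKM with ENZ against 38.5 FPKM (-0.22). It was the one of the 8 with a change below 0 with ENZ. EEIG1 had changes of 2.60, 3.92 and 0.53, and TTC39B had 3.07, 3.37 and 0.61. PRSS1, a trypsinogen gene, has near-identical copies, so its values are uncertain. With a filter of 5 or more in either library, 7 of the 8 stayed among the nearest, while the 8 genes with the highest Pearson correlation of levels over the 6 libraries shared 0 with them.

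**Figure D5:**
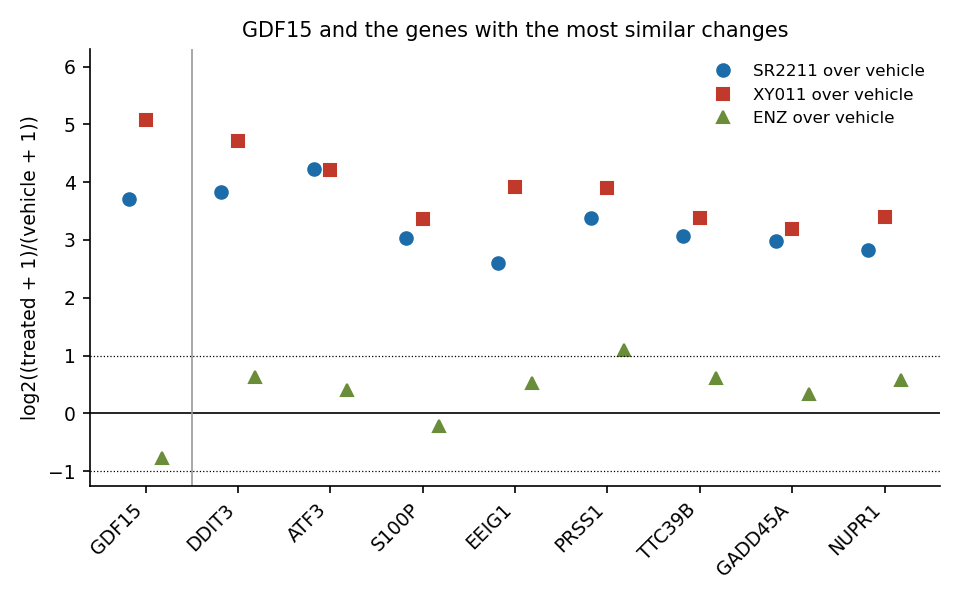
Log2 change, treated over vehicle, of GDF15 and the 8 genes nearest to it by the distance between their 3 changes, 1 point per experiment. DDIT3 and ATF3 have the smallest distances over all 3 changes (1.46 and 1.56), and with ENZ GDF15 (-0.78) lies below all 8, of which S100P alone is below 0 (-0.22).

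Several of the genes named above hold the letters of the ATF4 composite element in the 250 bases before their RefSeq start, and these 30-base stretches are printed to set them beside the GDF15 promoter, which has none. Capitals mark TGATGNAA, or its reverse complement where the element lies on the reverse strand. Each stretch is read along the strand of its gene, on GRCh38.p14.
ATF3, chr1:212565205-212565234: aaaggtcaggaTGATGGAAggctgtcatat
S100P, chr4:6693744-6693773: acaacgatgcaTTTCATCAgaactgagcac
CHAC1, chr15:40953251-40953280: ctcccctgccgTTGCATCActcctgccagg
ASNS, chr7:97872458-97872487 (reverse strand): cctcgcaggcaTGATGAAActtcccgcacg
FGF21, chr19:48755459-48755488: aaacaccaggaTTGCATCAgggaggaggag
The element began 191 bases before the start in ATF3, 123 in S100P, 209 in CHAC1, 68 in ASNS and 54 in FGF21. It was present in 8 of the 31 integrated stress response genes that have a promoter entry and in 3 of the 6 nearest genes that have one, beside 3.89% of all 27305 genes. Those 3 are ATF3, S100P and PRSS1, and the values of PRSS1 are uncertain. DDIT3, the gene nearest to GDF15, lacks the element in this window as GDF15 does, and so do EEIG1 and TTC39B. All the genes printed hold the element, so they do not show how common it is. The matches describe letters in a window and show no binding.

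Last, the direction of GDF15 was set against that of the other genes that were higher with both SR2211 and XY011. There were 360 such genes beside GDF15 among 11200, and 50 of the 360 (13.9%) had a change below 0 with ENZ, as had 52.7% of all 11200. Of the 360, 3 (0.833%) changed as far down with ENZ as GDF15 or further, as did 5.35% of all 11200. Called higher with ENZ too were 57 of the 360 (15.8%), beside 2.56% of all 11200. At a log2 change of 2 or more with both compounds there were 50 genes, GDF15 included, 6 of them below 0 with ENZ. GDF15 was the lowest of those 6 at -0.78, and HMOX1 followed at -0.68. The gene was chosen by its changes with SR2211, XY011 and ENZ, so its place among these genes describes the choice.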

How the data were processed

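RNA-seq values of 6 C4-2B libraries in 3 experiments were used, 1 library per group, and nothing in the labels says how cultures were set up. The authors deposited RPKM values for the SR2211 pair and FPKM values for the XY011 and ENZ pairs, per the file headers. GRCh37, hg19, Bowtie, BWA, Cuffdiff and Cufflinks are named, per the submitters' processing notes. The sources used here give no roles, versions, annotation or strand setting. Reads of a gene and an overlapping antisense gene therefore cannot be separated. A value of 0.01 in the SR2211 table and of 0.001 in the XY011 table stood in for no reads. The ENZ table held no 0 in its vehicle and 730 with ENZ, so an increase over no reads could not appear there.

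Rows were matched by identifier (17602 and 16293 genes) and for ENZ by symbol (22633 genes, 5707 names unmatched). Changes are log2((treated + 1)/(vehicle + 1)) on this pseudocount scale, which understates those of low genes. Small RNA genes and genes below 1 in both libraries were left out. A change of 1 or more is a rule of size with no test. GDF15, the 18 gene and marker lists and the naming rule were chosen with earlier results of these data known. A further regulator is not reported here and is left out of that list's counts. The rule names the receptor, processing and regulator lists, at most 5 members of each other list by mean change over the SR2211 and XY011 pairs, the 5 chromosome neighbours a side, the 8 nearest genes and the genes ranked next to GDF15. Depth was recovered from microRNA genes in the SR2211 pair, 8.16 M reads with SR2211 and 8.20 M in the vehicle, and is unknown elsewhere. Scripts were tested on simulated data. Promoter and microRNA sequences come from RefSeq (GRCh38.p14) and exons from GENCODE 29. Python 3.11.15, numpy 2.4.6, pandas 2.3.3, scipy 1.17.1 and matplotlib 3.10.9 were used. Other pseudocounts, scalings and filters were tried.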

Additional observations from a re-analysis of the deposited data

Results flagged for a closer look

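GDF15 had a log2 change of -0.78 with ENZ, 619.7 FPKM against 1064 FPKM in its vehicle, where the single SR2211 and XY011 libraries moved the opposite way from theirs (3.71 and 5.08). This difference between experiments was not tested, and dose, table and processing differ with the compound.

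MIR3189, the microRNA gene in the GDF15 intron, was listed at 0 with ENZ against 428 FPKM in the ENZ vehicle, and at 13.9 FPKM with XY011 against the stand-in for no reads in its vehicle. The opposite direction of these 2 pairs was not tested. The ENZ vehicle held no 0 for any gene, so a row with a 0 in that pair is lower with ENZ by the make-up of the table, and the contrast with XY011 says little. Each group is a single library.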

How the results depend on the processing

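The GDF15 log2 change kept its direction and its side of the size rule under all 7 alternatives of each pair, ranging from 3.60 to 3.85 with SR2211, 4.96 to 5.45 with XY011 and -0.80 to -0.61 with ENZ. Of 317 alternatives over all results, 251 kept the value near that reported, 61 moved it and 5 reversed it. Alternatives for the medians of lists other than the regulators, the stress response and the growth arrest genes were chosen after seeing the data. Reversed values were the ENZ median of the regulators (0.057) and the SR2211 median of housekeeping genes (0.0017), both with housekeeping centring, and the XY011 median of the processing genes (0.031 with median centring, 0.048 with quantile scaling, 0.25 with housekeeping centring). Genes called higher and lower with SR2211 were 620 and 699, and became 965 and 1053 with a pseudocount of 0.1, and 256 and 301 with 5. With XY011 957 and 1662 became 394 and 665 with a pseudocount of 5, and 1843 and 976 with housekeeping centring. With ENZ 706 and 896 became 1308 and 1449 with a pseudocount of 0.1, 184 and 272 with 5, and 458 and 523 with a filter at 5. The rank of GDF15 with SR2211 became 28 (pseudocount 0.1), 2 (pseudocount 5) and 14 (values rescaled to a common sum), and with XY011 11 (pseudocount 0.1). Of the 8 nearest genes, 0 were shared with a ranking by Pearson correlation. The cause was not tested. Housekeeping centring moved the median of all genes to 0.05 with SR2211, 0.18 with XY011 and 0.13 with ENZ, against -0.07, -0.14 and -0.02 as deposited, and median centring moved it to -0.03 with XY011. No paired analysis was possible because each group is 1 library and the labels carry no replicate numbers. Depth limits genes near the stand-in for no reads, such as GFRAL and MIR3189, where no fold is given.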
